A study of Homo sapiens with 4 samples.

Results

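The transcripts examined were those of the Mediator, Integrator and RNA polymerase I, II and III subunit genes. Members were taken by gene symbol: every listed gene whose name begins with MED or INTS and a number, or with POLR1, POLR2 or POLR3, hyphenated names left out. Of 15209 gene names in the site lists, 79 met this rule, and 67 of them held at least 1 site that could be compared, out of 10782 such genes in all. A site was compared where all 4 libraries listed it with at least 20 reads, which held for 531 of 1203 member sites and 78509 of 218950 sites in the series. N6-methyladenosine (m6A) was read by GLORI, a chemistry that turns unmethylated adenosine into a base sequenced as G and leaves m6A as A. The level of a site is the percent of its A plus G reads that are A.

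All 4 libraries came from wild-type HEK293T, a human embryonic kidney line that carries the SV40 large T antigen. The labels name no treatment for the 2 control libraries. For the 2 ascorbic acid libraries, cells were seeded for 24 h and then kept with ascorbic acid for 36 h, with the medium replaced every 6 h. No dose appears in the sources used here. Nothing in the labels says that replicates were separate cultures, so p-values measure only the spread between these samples, which may be technical. Of 7 genes reported in HEK293 cells, 6 were listed in all 4 libraries and PAX2 was not, and none of 16 markers of blood, endothelium, liver, squamous epithelium, muscle and mature kidney tubule was listed.

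Mediator is the large coactivator that carries signals from DNA-bound activators to RNA polymerase II. It is built from head, middle and tail modules on a MED14 backbone, with a detachable kinase module around CDK8. Integrator binds paused polymerase II, cleaves its nascent RNA and brings protein phosphatase 2A to it, and it forms the ends of small nuclear RNAs. Polymerase I makes the ribosomal RNA precursor, polymerase II messenger RNA, and polymerase III transfer RNA and 5S RNA, and some subunits serve several of them. In messenger RNA, m6A is written mainly by METTL3 and METTL14 at adenosines followed by C, often in long internal exons and near stop codons. PCIF1 places the same methyl group on a cap-adjacent first adenosine (m6Am), and this readout does not tell m6Am from m6A.

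Reads at listed sites came to 22592887 to 28562744 per library, and the median depth of member sites to 145 to 176 reads. A level of 40.0% has a 95% Wilson interval of 21.9% to 61.3% on 20 reads and of 30.9% to 49.8% on 100 reads, for counting error only. Member sites differed between replicates by little more than counting, with a chi-square per site of 1.34 between controls and 1.01 between ascorbic acid libraries, so the p-values rest largely on read counts. Control 2 stood apart in its median unconverted share, 3.88%, against 2.51% in control 1 and 2.72% and 2.87% with ascorbic acid. Where leaving out control 2 ended or made a call, this is stated beside some of the genes and sites described singly. Other counted calls were also lost without it and are not listed.

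Levels in these transcripts were lower with ascorbic acid. The median over the 531 member sites was 37.5% and 38.9% in control 1 and 2, against 32.0% and 32.3% in ascorbic acid 1 and 2. Both treated libraries lay below both controls, with means of 38.2% ± 0.947 and 32.1% ± 0.209 (SD, n = 2), a gap wider than the replicates of either group. An exact permutation test (two-sided) of the library medians gave p = 0.333, as low as 2 libraries against 2 can reach. By the quasi-likelihood test of edgeR, run on A against G reads and adjusted over all sites, 150 member sites fell, 1 rose and 380 did not pass at 0.05. The share that fell, 28.2%, stood near the 25.7% of all sites, of which 0.22% rose. The median change per site was -4.61 points in the members and -4.89 points over all sites. At 306 member sites, 57.6%, both treated libraries lay below both controls, as at 55.4% of all sites; at 16 they lay above, as at 4.22%. limma called 57 member sites that fell and DESeq2 68, of which 55 and 68 were among the 150. Without control 2 there were 94, and without ascorbic acid 2 there were 84.

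Summed over the compared sites of each gene, 44 of 67 member genes fell by edgeR, none rose, and 23 did not pass. The share that fell was 65.7%, beside 56.8% of all genes, of which 0.297% rose. Among genes with at least 3 compared sites, 37 of 50 members fell, 74.0%, beside 68.3% of all such genes. The median change in log2 odds of A was -0.39 in the members and -0.39 over all genes. In 58 members both treated libraries lay below both controls, which held for 76.7% of all genes. The change of summed reads can understate that of single sites where sites of a gene differ in level. limma and DESeq2 each called 26 member genes that fell. Without ascorbic acid 1, 29 fell, and without ascorbic acid 2, 25; without control 2, 33 fell, while POLR2F and POLR2L rose.

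**Figure D1:**
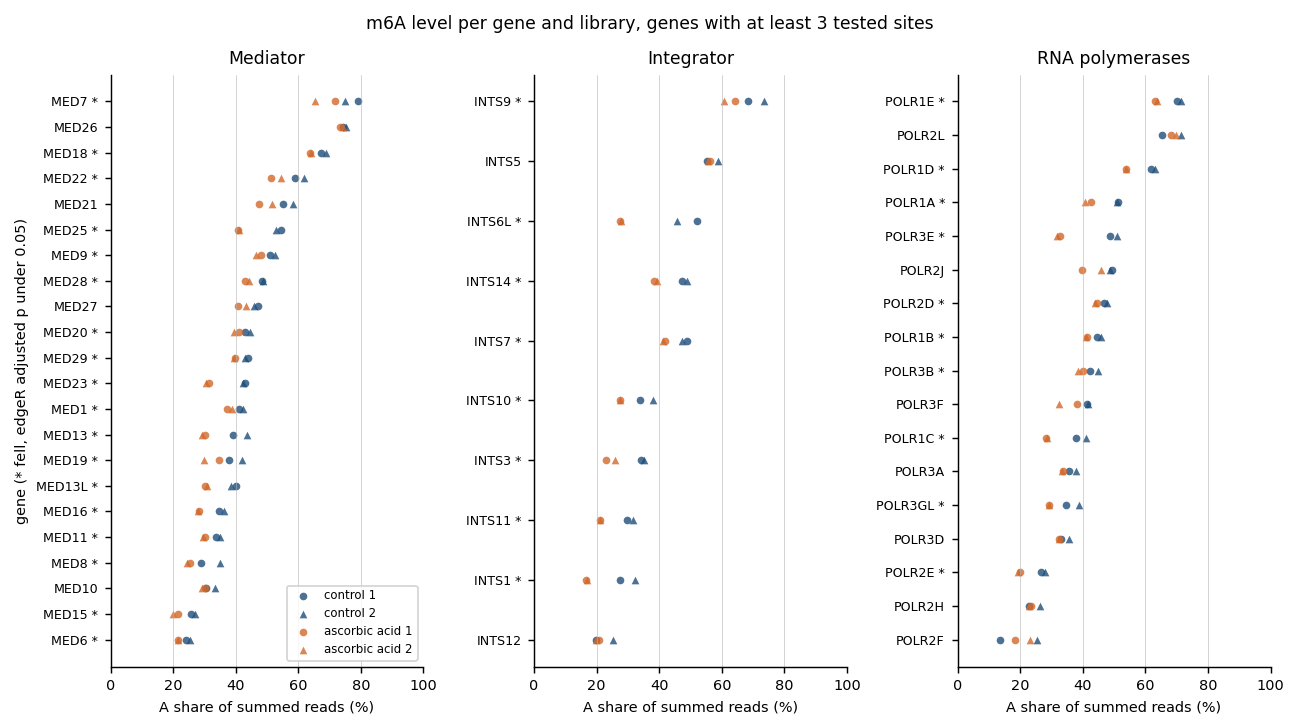
Percent of A among the summed A plus G reads of each gene (x axis) for the protein-coding members described here that had at least 3 compared sites; blue is control, orange ascorbic acid, circles replicate 1, triangles replicate 2, and a star marks genes that fell by edgeR. POLR3E shows a wide gap between groups (48.6% and 51.0% against 32.8% and 31.9%), while the 4 points of MED26 lie together and those of POLR2L overlap.

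Of the assemblies, 22 of 29 Mediator genes fell (75.9%), 10 of 14 Integrator genes (71.4%), 5 of 5 genes with polymerase I symbols, 3 of 11 with polymerase II symbols (27.3%) and 4 of 8 with polymerase III symbols (50.0%), beside 56.8% of all genes and 68.3% of those with at least 3 compared sites. The difference between assemblies was not tested, and the sites compared differed in kind. The median control level was 39.7% in Mediator, 37.2% in Integrator, and 46.4%, 31.1% and 32.1% under polymerase I, II and III symbols. POLR2B, POLR2F, POLR2G, POLR2H, POLR2J and POLR2L each had a compared site at a first base, a class described below. Of such sites 0.69% fell over the series. POLR2A, POLR2C and POLR2G had 1 compared site each. A pseudogene, MED13P1, is among the Mediator genes. Its reads can belong to MED13, so it is counted but not described, and 43 member genes fell without pseudogenes. Another pseudogene, POLR2CP1, is counted among the genes with polymerase II symbols, with 2 compared sites, neither of which fell. The 12 members with no compared site were INTS4, INTS4P1, INTS6P1, MED12L, MED30, POLR2I, POLR2J3, POLR2J4, POLR2K, POLR2M, POLR3C and POLR3K.

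A first group to single out by sequence were 12 member sites at the first base of a start that RefSeq annotates, where m6Am would lie. Of these, 10 lie at the first base of the gene record. The POLR2H site lies 1651 nt and the POLR2F site 36 nt inside the record, at a further start that a window gives. The same definition took 870 sites over the series, 718 at the start of the record and 152 at a further one. Windows around such starts from RefSeq (GRCh38.p14, 250 bases before to 50 after) covered 53 of the 79 members and 9 of these sites. The following 25-base stretches are shown 5′ to 3′ in transcript direction with the measured A in capitals, to set first-base sites beside a site that lies near one of them. The first 5 lines are first-base sites and the last is a POLR2H site 125 nt upstream of the first base shown for that gene.
POLR2L, chr11:842517-842541, minus strand: gccgggccgggcAgtctgggacgcg
POLR2H first base, chr3:184363349-184363373, plus strand: tgcgcatgcgccActctcgtctggc
POLR2B, chr4:56978884-56978908, plus strand: gagacggaagttActtcgtctttag
MED11, chr17:4731416-4731440, plus strand: acaccgagagccActtccggaacaa
POLR3E, chr16:22297397-22297421, plus strand: ccgctcccccccAcgtgtccgccgg
POLR2H upstream, chr3:184363224-184363248, plus strand: agagccacctggAcatgagacccgc

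None of the 12 first-base sites fell or rose by edgeR, and their median change was 0.626 points. Over the series, 0.69% of first-base sites fell and 0.575% rose, with a median change of -0.0056 points. At matched control levels of 20% to 40%, 0 of 9 first-base member sites fell and 37 of the 181 other member sites did. Over the series these were 0 of 405 and 14.1%. Depth was not matched: the lowest read count of a site had a median of 57 in the 9 and 134 in the 181. Over the series these medians were 65 and 81. The deepest of the 12 sites, in POLR2L, a small subunit of all the polymerases, read 66.7% and 74.0% in control against 71.7% and 73.4% in the treated libraries on 1038 to 1880 reads. Its treated values lay between the controls (0.13 ± 0.12, edgeR adjusted p = 0.50), and without control 2 it passed as a rise (0.41, edgeR adjusted p = 0.0220).

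POLR2H, another shared subunit, read 24.8% and 34.3% in control against 28.8% and 30.4% in the treated libraries at its first base, on 529 to 1004 reads. The treated values lay inside the range of the controls. The upstream POLR2H site went from 52.5% and 58.8% to 37.2% and 39.3% on 51 to 89 reads, with both treated values below both controls (-1.0 ± 0.34, edgeR adjusted p = 0.0255). That call was lost with limma (0.0534), with DESeq2 (0.321) and without any of the 4 libraries (edgeR adjusted p from 0.0524 to 0.197). A nearer POLR2H site, 75 nt before that first base and also followed by C, read 25% and 24.4% in control against 31.7% and 29.4% in the treated libraries on 28 to 63 reads and did not pass (0.43 ± 0.45, edgeR adjusted p = 0.567). First-base sites were not tested against their neighbours.

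POLR2B, the second largest subunit of polymerase II, read 38.3% and 42.5% against 38.0% and 38.0% at its first base. MED11, of the head, read 41.9% and 36.8% against 45.6% and 48.1%, and POLR3E 22.0% and 19.1% against 34.1% and 23.2%. The treated values lay below the controls in POLR2B and above them in MED11 and POLR3E, and none of these changes passed. The least even replicates were those of POLR2F, a subunit of all the polymerases, with 11.1% and 33.3% in control against 21.9% and 32.9% in the treated libraries; without control 2 it passed as a rise (1.66, edgeR adjusted p = 6.62e-04).

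In the windows of all genes, 77.1% of 722 compared first-base sites were preceded by C, beside 29.8% of all A in the windows. Of all 35116 windows, 44.4% had A at the first base and 29.6% had that A preceded by C. Most first-base A thus follow a C whether or not a site was compared there. They were followed by C in 28.0%, and the 845 other compared sites of the windows in 47.3%. Of the 400 other window sites with C after the A, 16.75% fell, and of the 445 with another base 0.899%. In the stretches above, the upstream POLR2H site has C after the A, and so do the first-base sites of POLR2H, POLR2B, MED11 and POLR3E. These are matches of letters and describe the windows only.

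**Figure D2:**
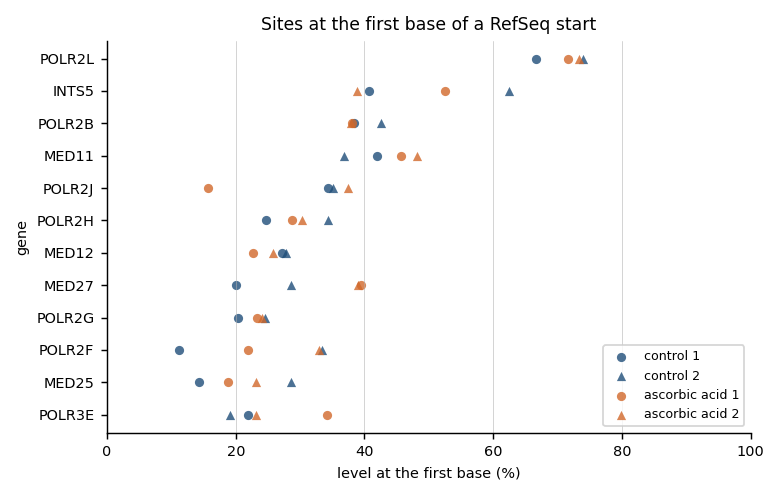
Level in percent (x axis) of the 12 member sites at the first base of a RefSeq start (rows, by gene), in control (blue) and ascorbic acid libraries (orange), circles for replicate 1 and triangles for replicate 2. Blue and orange mix, POLR2L lies highest at 66.7% and 74.0% in control, and no site passed the test in either direction.

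In Mediator, 62 of 249 sites fell and none rose; the share that fell, 24.9%, was near the 25.7% of all sites. Beside 56.8% of all genes, all 7 head genes fell, by -0.21 to -0.49 in log2 odds, with 7 of 8 tail genes, 4 of 9 middle genes, the backbone gene MED14 and 2 of 3 genes of the kinase module. By sites, 10 of 52 fell in the head (19.2%) and 8 of 79 in the middle (10.1%), both below the 25.7% of all sites. In the tail 19 of 56 fell (33.9%), in the kinase module 22 of 58 (37.9%) and in MED14 1 of 2. MED25, a tail subunit bound by the VP16 activation domain, had levels of 54.4% and 52.8% in control against 40.8% and 41.0% in the treated libraries over 13 sites, of which 5 fell. The treated values lay together, far below both controls (-0.74 ± 0.10, edgeR adjusted p = 5.16e-06). MED23, a tail subunit contacted by ELK1, went from 42.9% and 42.5% to 31.3% and 30.5% over 3 sites (-0.74 ± 0.15, edgeR adjusted p = 3.33e-04). MED24, also of the tail, had 2 compared sites and went from 33.0% and 38.1% to 15.6% and 15.3% (-1.61 ± 0.12, edgeR adjusted p = 1.01e-09).

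MED26, which links Mediator to elongation factors, had a high level whose change did not pass. Its 10 sites together read 74.4% and 75.3% in control against 73.2% and 74.3% in the treated libraries, the treated values lying just below the controls (-0.078 ± 0.13, edgeR adjusted p = 0.610), and none of its sites fell. The MED26 value ran from -0.022 with A reads lowered by the unconverted share to -0.21 with at least 50 reads, and over -0.12 to -0.038 with a library left out. MED1, the nuclear receptor coactivator of the middle module, had 32 compared sites, of which 2 fell, and went from 41.0% and 42.2% to 37.2% and 38.8% (-0.21 ± 0.075, edgeR adjusted p = 0.0195). Both held sites at a high level that moved little. A MED26 site at chromosome 19 position 16576055 read 82.2% and 75.2% in control against 77.3% and 79.3% in the treated libraries. A MED1 site at chromosome 17 position 39408735 read 96.8% and 93.0% against 96.4% and 94.2%. At both the groups overlapped.

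The kinase module held some of the widest site changes. MED13 and its paralogue MED13L encode the large proteins that tether the CDK8 kinase to Mediator, and MED12 the subunit that activates it. MED13 went from 39.0% and 43.6% to 30.2% and 29.3% over 34 sites, of which 15 fell (-0.73 ± 0.086, edgeR adjusted p = 4.13e-07). MED13L went from 40.0% and 38.6% to 30.1% and 31.0% over 23 sites, of which 7 fell (-0.56 ± 0.08, edgeR adjusted p = 6.08e-06). In both genes the treated libraries lay below both controls. MED12 had a single compared site, at its first base, with 27.1% and 27.8% in control against 22.7% and 25.7% in the treated libraries, and did not pass (-0.25 ± 0.36, edgeR adjusted p = 0.580).

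The widest fall of any member site was in MED13L, at chromosome 12 position 116008655, where the level was 85.5% and 90.9% in control against 44.4% and 37.5% in the treated libraries on 83 to 112 reads. The groups were far apart (-3.43 ± 0.34, edgeR adjusted p = 5.99e-11). In MED13, the site at chromosome 17 position 61982743 went from 94.2% and 94.8% to 57.0% and 54.6% (-3.74 ± 0.41, edgeR adjusted p = 8.30e-10). Both sites have another listed site exactly 6 nt away. Over the series, 3129 of the 78509 compared sites have such a neighbour, and they hold 124 of the 173 sites that rose. Of the 3129, 545 fell, 17.4% beside 25.7% of all sites. Of the 15 compared member sites of this kind, 3 fell and 0 rose. The cause of this pattern was not tested. In MED13 that neighbour, at position 61982737, read 37.9% and 34.2% in control against 42.9% and 49.6% in the treated libraries. Its treated values lay above the controls, although its change did not pass (edgeR adjusted p = 0.137). The MED25 site at chromosome 19 position 49839607 went from 86.5% and 87.1% to 51.5% and 56.0% (-2.48 ± 0.33, edgeR adjusted p = 8.18e-08).

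In Integrator, 32 of 84 sites fell and 1 rose, 38.1% that fell beside 25.7% of all sites. Their median change, -4.91 points, was close to the -4.89 points over all sites. Depth was not matched: the lowest read count of a site had a median of 203.5 in Integrator and 86 over all sites. Beside 56.8% of all genes, both compared genes of the cleavage module fell, 3 of 5 core genes, both phosphatase-linked genes, INTS3 but not INTS12, and 2 of 3 arm genes. INTS11, the endonuclease, read 29.6% and 31.6% in control against 21.0% and 21.1% in the treated libraries, and all 5 of its sites fell (-0.72 ± 0.096, edgeR adjusted p = 2.31e-06). INTS1, the largest subunit, went from 27.6% and 32.3% to 16.6% and 16.9% over 3 sites (-1.08 ± 0.16, edgeR adjusted p = 9.50e-06). INTS14, an arm subunit, had 7 of 10 sites that fell and went from 47.3% and 49.0% to 38.2% and 39.4% (-0.55 ± 0.073, edgeR adjusted p = 2.28e-06). In these 3 genes both treated libraries lay below both controls.

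INTS6 and INTS6L are paralogues that link Integrator to protein phosphatase 2A. INTS6L read 52.0% and 45.7% in control against 27.5% and 27.8% in the treated libraries on 218 to 273 reads, and all 3 of its sites fell (-1.32 ± 0.20, edgeR adjusted p = 1.43e-05). INTS6 read 31.6% and 34.4% against 27.1% and 22.2% over 2 sites (-0.61 ± 0.23, edgeR adjusted p = 0.0315). The INTS6 call was lost without control 2 (edgeR adjusted p = 0.122), without ascorbic acid 2 (0.303), with limma (0.0520), with DESeq2 (0.176) and with at least 50 reads (change of -0.15, edgeR adjusted p = 0.680). The difference between the paralogues was not tested.

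Among Integrator sites with at least 50 reads in every library, the widest falls, 1 per gene, were in INTS1, INTS11 and INTS6L. The INTS1 site at chromosome 7 position 1470282, 5 nt from the annotated 3′ end of the gene, read 81.9% and 87.7% in control against 36.1% and 43.8% in the treated libraries on 73 to 96 reads (-3.02 ± 0.35, edgeR adjusted p = 2.40e-09). The INTS11 site at chromosome 1 position 1319342 went from 81.2% and 74.5% to 50.2% and 54.1% (-1.72 ± 0.24, edgeR adjusted p = 1.59e-07). The INTS6L site at chromosome X position 135581944 went from 62.0% and 59.0% to 34.4% and 36.0% (-1.48 ± 0.32, edgeR adjusted p = 4.09e-04), a call lost with DESeq2 (adjusted p = 0.0544). At all 3 sites the groups did not overlap.

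INTS5, a core subunit, moved little. Its 29 sites read 55.3% and 58.9% in control against 56.3% and 55.5% in the treated libraries on 8738 to 11340 reads, and the groups overlapped (-0.071 ± 0.074, edgeR adjusted p = 0.422). Without control 2 the sign turned (0.034), and without control 1 the gene passed as a fall (-0.17, edgeR adjusted p = 0.00138). The 1 member site that rose lies here, at chromosome 11 position 62648998, with 15.1% and 18.4% in control against 21.8% and 23.0% in the treated libraries on 395 to 510 reads. Both treated values stood above both controls (0.50 ± 0.18, edgeR adjusted p = 0.0366). The call was lost without control 1 (edgeR adjusted p = 0.224), ascorbic acid 1 (0.124) or ascorbic acid 2 (0.246), with limma (0.186) and with DESeq2 (0.264).

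All 5 genes with polymerase I symbols fell, beside 56.8% of all genes, with 24 of 67 sites, 35.8% beside 25.7% of all sites. Polymerase I subunits listed under older symbols are not among them. Of these, TWISTNB fell and ZNRD1 did not pass. CD3EAP read 74.0% in control against 74.8% with ascorbic acid over 9 sites and did not pass. POLR1A, the largest subunit, had more compared sites than any other member, 37, of which 12 fell. Its level went from 51.3% and 51.1% to 42.8% and 40.8% (-0.55 ± 0.071, edgeR adjusted p = 1.72e-06). Its site at chromosome 2 position 86027310 went from 80.7% and 79.6% to 48.8% and 49.6% (-2.06 ± 0.27, edgeR adjusted p = 4.52e-08). POLR1B, the second largest subunit, moved least of the 5, from 44.6% and 45.9% to 41.4% and 41.1% (-0.23 ± 0.079, edgeR adjusted p = 0.0164). Its call was lost without ascorbic acid 1 (edgeR adjusted p = 0.118) or 2 (0.164), with limma (0.0875) and with DESeq2 (0.0917).

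POLR1C and POLR1D encode the subunit pair that polymerases I and III share. POLR1C went from 37.9% and 41.0% to 28.2% and 28.7% over 3 sites (-0.71 ± 0.095, edgeR adjusted p = 2.31e-06). POLR1D went from 61.9% and 63.1% to 53.7% and 53.9% over 9 sites, of which 6 fell (-0.52 ± 0.074, edgeR adjusted p = 6.70e-06). In each of the 5 genes both treated libraries lay below both controls.

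Among genes with polymerase II symbols, 11 of 53 sites fell, 20.8% beside 25.7% of all sites. POLR2E, a subunit of all the polymerases, went from 26.7% and 28.0% to 20.0% and 19.3% (-0.62 ± 0.074, edgeR adjusted p = 5.42e-07). It holds the deepest member site, at chromosome 19 position 1088618 and named for that depth, which went from 24.3% and 25.3% to 16.4% and 15.5% on 4324 to 5305 reads, with the groups well apart (-0.80 ± 0.089, edgeR adjusted p = 1.17e-09). POLR2A, the catalytic subunit with the repeated carboxy-terminal domain, had 1 compared site, at 15.5% and 16.4% in control against 12.2% and 13.6% in the treated libraries (-0.33 ± 0.26, edgeR adjusted p = 0.276). POLR2J, the partner of POLR2C, read 49.2% and 48.8% against 39.7% and 45.7% and did not pass (-0.35 ± 0.22, edgeR adjusted p = 0.175); its copies POLR2J3 and POLR2J4 had no compared site.

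POLR2B and POLR2D fell by less. POLR2B went from 36.4% and 41.3% to 33.7% and 33.5% (-0.33 ± 0.13, edgeR adjusted p = 0.0319), a call lost without control 2 (-0.17, edgeR adjusted p = 0.331), ascorbic acid 1 (0.105) or 2 (0.139), with limma (0.109) and with DESeq2 (0.168). POLR2D, of the stalk, went from 46.7% and 47.8% to 44.6% and 44.0% (-0.17 ± 0.073, edgeR adjusted p = 0.0476). This call was lost without control 2 (edgeR adjusted p = 0.0600), ascorbic acid 1 (0.208) or 2 (0.327), with limma (0.162), with DESeq2 (0.169) and with at least 50 reads (0.0638).

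POLR2L read 65.2% and 71.5% in control against 68.3% and 69.9% in the treated libraries over 4 sites, the treated values lying between the controls (0.036 ± 0.11, edgeR adjusted p = 0.792). Without control 2 it passed as a rise (0.26, edgeR adjusted p = 0.0178), and without control 1 (-0.16) or ascorbic acid 2 (-0.017) the sign turned. Most of its reads come from the first-base site described above. POLR2F read 13.4% and 25.5% in control against 18.4% and 23.1% in the treated libraries, so that its controls differed more than its groups (0.10 ± 0.22, edgeR adjusted p = 0.707). Leaving out control 1 gave a call as a fall and leaving out control 2 a call as a rise.

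For polymerase III, 21 of 78 sites fell, 26.9% and so near the 25.7% of all sites. POLR3E, a peripheral subunit, fell furthest among the polymerase genes, from 48.6% and 51.0% to 32.8% and 31.9% over 17 sites, of which 10 fell (-1.05 ± 0.076, edgeR adjusted p = 4.12e-10). Its site at chromosome 16 position 22326128 read 88.3% and 88.4% in control against 45.3% and 44.3% in the treated libraries on 779 to 998 reads. Replicates there nearly coincided and the groups lay far apart (-3.22 ± 0.13, edgeR adjusted p = 9.52e-23).

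The largest subunits of polymerase III moved less. POLR3A read 35.7% and 37.8% in control against 33.7% and 33.4% in the treated libraries and did not pass (-0.21 ± 0.088, edgeR adjusted p = 0.0502). It passed without control 1 (edgeR adjusted p = 0.00511) and narrowly with no read minimum (0.0495), with at least 50 reads (0.0443), with A reads lowered by the unconverted share (0.0432) and without sites that have a neighbour 6 nt away (0.0454). POLR3B went from 42.4% and 44.8% to 40.0% and 38.5% (-0.26 ± 0.1, edgeR adjusted p = 0.0324), and lost its call without control 2 (edgeR adjusted p = 0.139), ascorbic acid 1 (0.0796) or 2 (0.243), with limma (0.0965) and with DESeq2 (0.157). POLR3D, the partner of POLR3E, read 33.0% and 35.7% against 32.3% and 32.5% (-0.13 ± 0.091, edgeR adjusted p = 0.240), and passed as a fall without control 1 (edgeR adjusted p = 0.0355).

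POLR3G and POLR3GL are paralogues that take the same place in the enzyme. POLR3GL went from 34.6% and 38.7% to 29.4% and 29.4% (-0.48 ± 0.17, edgeR adjusted p = 0.0250). That call was lost without control 2 (edgeR adjusted p = 0.185), ascorbic acid 1 (0.0888) or 2 (0.0957), with at least 50 reads (0.145) and with DESeq2 (0.153). POLR3G read 25.8% and 27.6% against 19.5% and 22.3% over 2 sites (-0.46 ± 0.31, edgeR adjusted p = 0.214), and the difference between the paralogues was not tested.

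Across all members, the share of sites that fell was higher where the control level was higher. Below 20% in control, 2 of 88 member sites fell (4.65% of all such sites). From 20% to 40%, 37 of 190 fell (19.5%, beside 13.9% of all), and from 40% to 60%, 28 of 95 (29.5%, beside 24.8% of all). From 60% to 80%, 37 of 78 fell (47.4%; 38.8% of all), and from 80% upward 46 of 80 (57.5%; 57.3% of all). The lists hold no site under 10%, so a site at a low level has little room to fall and stay listed. Above 90% in control there were 53 member sites in 22 genes, of which 30 fell, beside 61.1% of all such sites. In this class 4 of 4 POLR1A sites and 5 of 8 INTS5 sites fell, while 0 of 4 MED26 and 0 of 3 MED1 sites did. An INTS5 site at position 62649508, named after its values were seen, went from 99.1% and 99.7% to 94.0% and 94.5% (-3.34 ± 0.57, edgeR adjusted p = 8.44e-06). It fell by few points from a level close to full.

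**Figure D3:**
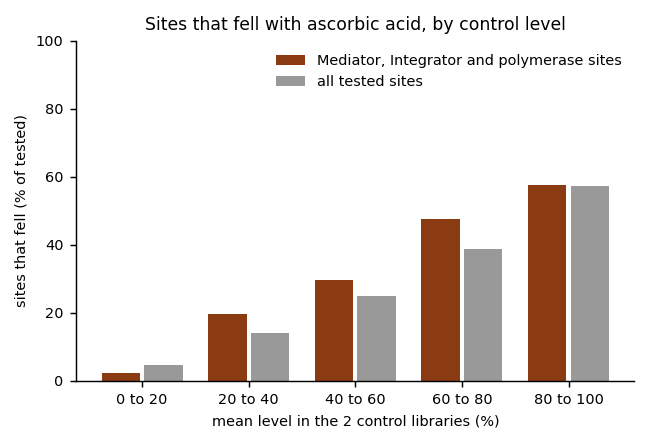
Percent of compared sites that fell by edgeR (y axis, from 0) in 5 bands of mean control level (x axis), for Mediator, Integrator and polymerase sites (brown) and all compared sites (grey). Both series climb across the bands, to 57.5% and 57.3% in the highest.

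**Figure D4:**
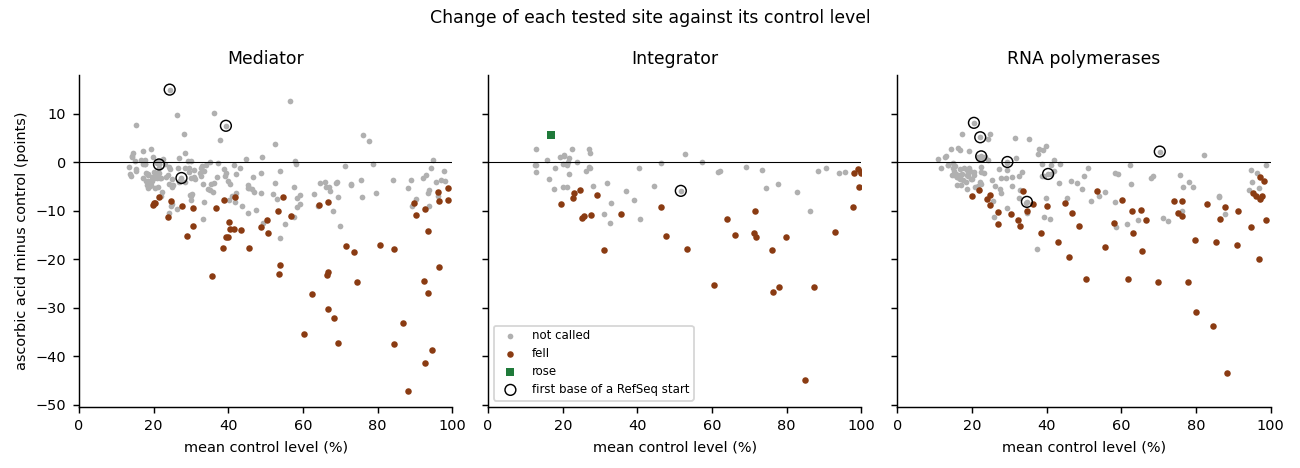
Change of each compared site of protein-coding members in points (ascorbic acid minus control, y axis) against its mean control level in percent (x axis). Brown points fell by edgeR, the green square is the INTS5 site that rose, open circles mark first bases of RefSeq starts, and falls of over 40 points occur only at control levels above 80%.

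Sites that moved apart from their own transcript were found by testing the change in odds of each site against that over the other compared sites of its gene, as an interaction term in edgeR. Of 524 member sites so tested, 45 moved below the rest of their gene (8.59%; 10.8% of all sites) and 15 above it (2.86%; 3.66% of all). In genes with 2 sites both tests are the same, which holds for 6 of these calls. Sites below the rest had a median control level of 87.4%, with 40 of 45 above 60%. Those above it had a median of 22.4%, with 13 of 15 under 40%. Control level was not matched in this test. Over all compared sites the median change in log2 odds was -1.50 from 80% upward in control and -0.30 from 20% to 40%. limma called 11 and 2. Without ascorbic acid 2 there were 28 and 6, and without ascorbic acid 1, 8 were above the rest.

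POLR3E had sites of both kinds. Its site at position 22326128, described above, moved below the rest of the gene (difference in log2 odds -2.51 ± 0.15, edgeR adjusted p = 2.04e-19). The POLR3E site at position 22333920 read 34.7% and 28.1% in control against 37.0% and 35.8% in the treated libraries, both treated values above the controls, and moved above the rest (1.47 ± 0.19, edgeR adjusted p = 1.34e-08). By itself that site did not pass (edgeR adjusted p = 0.210). The 2 sites of MED24 parted in the same way. On chromosome 17, position 40019584 went from 32.0% and 39.5% to 12.5% and 12.2%, while position 40019496 read 38.3% and 31.1% against 30.7% and 27.4% (1.64 ± 0.28, edgeR adjusted p = 8.50e-06).

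In MED13L, the site at position 115991223 went from 88.0% and 97.1% to 50.9% and 51.3%, below the rest of its gene (-3.06 ± 0.33, edgeR adjusted p = 1.74e-10), as was the site at 116008655 (-2.94 ± 0.36, edgeR adjusted p = 4.08e-09). In MED13, position 62065596 went from 90.5% and 94.5% to 68.7% and 67.3% (-1.99 ± 0.29, edgeR adjusted p = 2.90e-07); it is 1 of 3 MED13 sites that lie before the annotated start of the gene. POLR1A position 86027233 went from 77.0% and 78.9% to 56.0% and 50.5% on 613 to 702 reads (-1.19 ± 0.15, edgeR adjusted p = 1.73e-08). All 4 had groups that did not overlap.

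Sites above the rest of their gene were of low or middle level. The MED13 site at 61982737, 6 nt from the site that fell, was one (1.41 ± 0.35, edgeR adjusted p = 0.00214). A MED13L site at position 116009048 read 13.2% and 17.6% in control against 25.9% and 20.4% in the treated libraries (1.27 ± 0.34, edgeR adjusted p = 0.00579); it too has a listed neighbour 6 nt away. INTS3, which also serves in a complex that binds single-stranded DNA, had a site at chromosome 1 position 153773734 with 28.5% and 26.2% against 23.0% and 29.4% (0.83 ± 0.19, edgeR adjusted p = 8.87e-04), where the groups overlapped. The INTS3 call was lost without ascorbic acid 2 (edgeR adjusted p = 0.114). The MED13 one was lost without control 2 (0.0726) or ascorbic acid 2 (0.0800), and the MED13L one without control 1 (0.110) or ascorbic acid 1 (0.116). With limma, the named differences held for POLR3E position 22326128 and MED13L position 116008655, and the other 8 had adjusted p-values from 0.0549 to 0.146.

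Position was described by genomic distance from the annotated 3′ end of the gene (RefSeq, GRCh38.p14), introns included and first-base sites left out. Of 132 member sites over 5000 nt away 42.4% fell, beside 32.3% of all such sites. Their median change was -6.39 points, close to the -6.49 points of all such sites. Depth was not matched here: the lowest read count of a site had a median of 118.5 in these members and 75 in all such sites. From 1000 to 5000 nt 53 of 232 fell, 22.8% beside 22.7% of all such sites, and under 1000 nt 41 of 155, 26.5% beside 29.3%. At control levels of 60% to 90% the median change was -20.5 points for 28 distant member sites in 10 genes, of which 22 fell, beside -13.8 points over all distant sites. It was -6.09 points from 1000 to 5000 nt (-8.17 over all) and -12.0 points nearer the end (-10.0 over all). In MED13, 14 of 24 distant sites fell and 1 of 10 others, with median changes of -15.5 and -3.47 points. MED13L had 5 of 10 and 2 of 13. In both genes the distant sites also had the higher median control level, 44.5% against 33.8% in MED13 and 51.0% against 40.3% in MED13L. In POLR1A 9 of 23 distant sites fell and 3 of 14 others, but their median changes were -6.09 and -9.39 points. MED1 had 1 of 15 and 1 of 17. Whether a site lies in an exon, an intron or a UTR was not analysed here. Neighbouring member sites lay a median of 80 nt apart, and 155 of 464 neighbouring pairs within 50 nt, so many share reads.

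**Figure D5:**
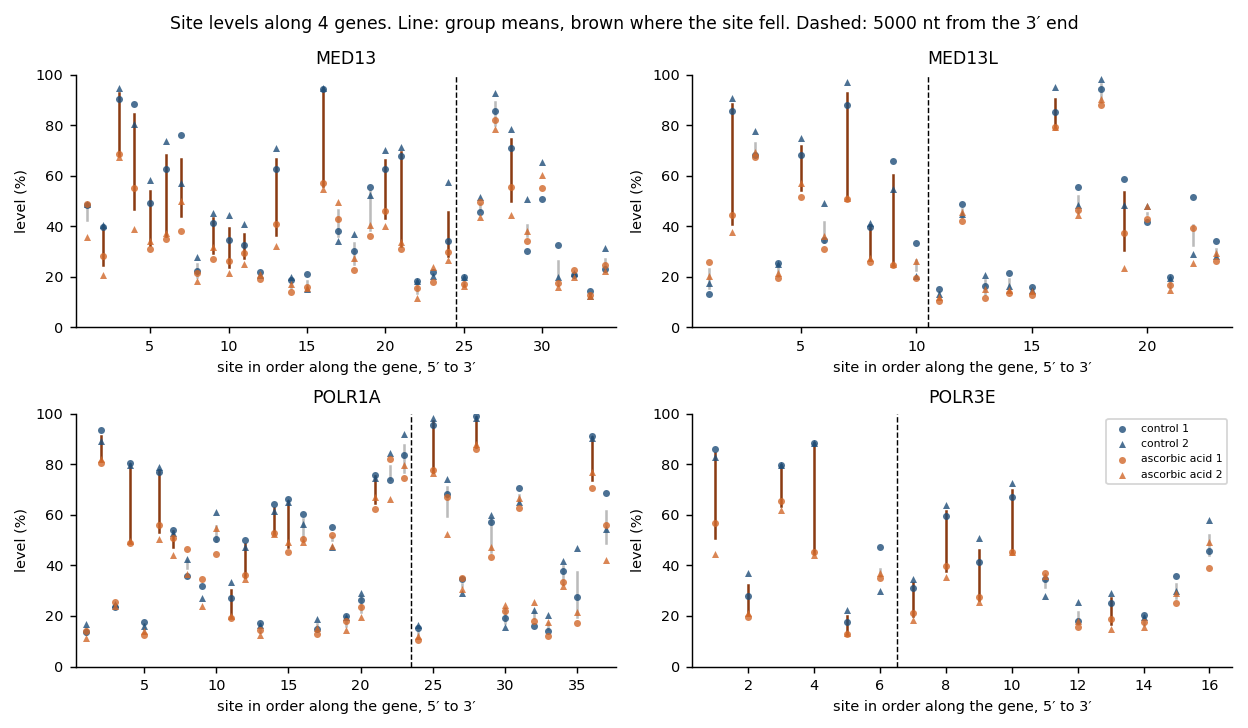
Level in percent (y axis) of each compared site in 5′ to 3′ order (x axis) for MED13, MED13L, POLR1A and POLR3E, first-base sites left out; points are libraries, the line joins the group means and is brown where the site fell, and the dashed line marks 5000 nt from the 3′ end. In MED13 14 of the 15 brown lines stand left of the dashed line, and in POLR3E they stand on both sides.

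The deposited gene coverage, a rough measure of transcript abundance, did not pass for any member. Of 69 members tested with limma, 0 passed after adjustment, beside 0.253% of all genes that rose and 0.0422% that fell. At an unadjusted p under 0.05 there were 10, beside 14.4% of all genes. Their changes ran from -0.21 in MED6 to 0.26 in POLR2M on the log2 scale, and the smallest adjusted p was 0.225, in MED25. POLR3E, whose levels fell furthest among polymerase genes, had a scaled coverage of 193 and 169 in control against 204 and 208 in the treated libraries. INTS5 had 332 and 388 against 315 and 309, and passed as a fall without control 1. In bulk samples, fewer cells with a transcript and less RNA per cell cannot be told apart.

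Lists of related transcription genes outside the rule held 105 genes with a compared site, mitochondrial transcription genes and 4 members under older symbols included. Of these, 76 fell, 72.4% beside 56.8% of all genes and 68.3% of those with at least 3 compared sites. SSRP1 rose, beside 0.297% of all genes. By list, to be read against the same 56.8%, 24 of 28 pausing and elongation genes fell, 18 of 31 initiation genes, 10 of 14 polymerase III factors, 3 of 5 polymerase I factors, 9 of 9 assembly factors, 5 of 7 Integrator partners, 4 of 4 mitochondrial transcription genes and 1 of 3 genes of the Mediator kinase. CDK8, the kinase, went from 43.2% ± 3.85 to 33.1% ± 1.90 (SD, n = 2) over 3 sites (-0.61 ± 0.17, edgeR adjusted p = 0.00572). BRAT1, an Integrator partner, went from 40.2% ± 0.617 to 23.0% ± 0.818 over 12 sites (-1.17 ± 0.07, edgeR adjusted p = 3.05e-11). TBP, the TATA-binding protein, went from 65.4% ± 2.42 to 38.5% ± 1.84 over 2 sites (-1.61 ± 0.16, edgeR adjusted p = 3.78e-08). GTF3A, which starts 5S RNA transcription, had 1 compared site and went from 63.8% ± 5.82 to 30.5% ± 1.67 (-1.99 ± 0.14, edgeR adjusted p = 1.95e-10). SSRP1, of the FACT histone chaperone, went from 13.9% ± 2.11 to 19.1% ± 1.66 over 2 sites (0.53 ± 0.11, edgeR adjusted p = 3.36e-04). Its control level lies near the 10% floor of the lists. Members listed under older symbols were not taken by the rule: C7orf26 (INTS15) and TWISTNB (POLR1F) fell, and ZNRD1 (POLR1H) and CD3EAP (POLR1G) did not pass.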

How the data were processed

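GLORI sites were measured in messenger RNA of HEK293T cells, 2 control and 2 ascorbic acid libraries. Fragmented mRNA (300 ng) was treated with glyoxal and then deaminated for 8 h at 16 °C, per the labels' protocols. Per the submitters' processing notes, Trimmomatic 0.39 and STAR were used with hg38/GRCh38. The sources used here do not name the site caller. Each deposited list gives the authors' counts of A plus G reads and of A reads per site, unscaled. The level and the conversion rate are fractions as deposited by the authors. Gene coverage is a signal deposited by the authors whose unit no source defines. The authors' p-value per site, per the file headers, was not used. In the deposited lists every site has at least 15 reads, 5 of them A, and a level of 10% or more.

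Sites with 20 reads or more in every one of the 4 lists were fitted together with edgeR 4.0.16 (R 4.3.3; quasi-likelihood test of the treatment effect on the odds of A, with a term per library), singly, summed per gene and against the rest of the gene. Two-sided p-values were Benjamini-Hochberg adjusted over all features, threshold 0.05. Coverage was scaled by median ratios and tested on the log2 scale with limma 3.58.1. limma on log2 odds (pseudocount 0.5), DESeq2 1.42.0, read minimums, TMM, a replicate block, a conversion correction and leaving out each library were alternatives. The scripts were tested on simulated data. Gene positions and sequences came from RefSeq tables of GRCh38.p14.

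The members and lists were chosen with earlier results of these data known. Named in full were, per assembly, the 2 largest falls and the smallest change among genes with at least 3 sites, the widest site falls, the sites that rose, the 5 smallest p-values each way against the rest, paralogues and largest subunits; others were named after their values were seen. Replicate numbers were not used as pairs. Values of 1 member gene are not reported here; it stays in the counts.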

Additional observations from a re-analysis of the deposited data

How the results depend on the processing

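In every alternative more member sites and genes fell than rose, but the counts that fell varied. The median change per member site stayed between -4.09 and -5.51 points. Sites that fell, 150 as reported, were 57 with limma and 68 with DESeq2, and 84 to 133 with a library left out. Sites that rose, 1 as reported, were 0 with limma and with DESeq2, 2 with A reads lowered by the unconverted share, and 0 to 3 with a library left out. Genes that fell, 44 as reported, were 26 with limma and 26 with DESeq2, and 25 to 52 with a library left out; genes that rose, 0 as reported, were 0 to 2. Sites below the rest of their gene, 45 as reported, were 11 with limma and 28 to 39 with a library left out, and those above it, 15 as reported, were 2 and 6 to 15. No member's coverage rose under any alternative run, and 0 to 1 fell with a library left out (INTS5, without control 1). Over the series, 20188 sites and 6119 genes fell by edgeR. Without annotated first-base sites, chosen after seeing the data, the median change was -4.76 points.

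Whether replicate numbers pair the samples is not known. Deviations of same-numbered libraries correlated at -0.0053 over all sites and 0.016 over member sites. Member sites differed between replicates by little more than counting, so so low a correlation cannot decide whether the samples were paired. With the replicate block, 159 member sites and 44 genes fell, and limma on the difference with the block, on 1 residual degree of freedom, called 0 sites below and 0 above the rest of their gene; POLR2D lost its call (adjusted p = 0.0726).

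Among 60 named results, 560 alternative values kept direction and call, 66 lost a call, 11 gained one, and 24 changed sign, none of them a called result. In log2 odds, leaving out 1 library at a time gave INTS5 -0.17 to 0.034, POLR2L -0.16 to 0.26, MED26 position 16576055 -0.34 to 0.26 and MED1 position 39408735 -0.63 to 0.56. At first bases the ranges were -1.06 to 0.21 in INTS5, -0.55 to 0.69 in MED25, -0.33 to 1.66 in POLR2F, -0.066 to 0.28 in POLR2G, -0.31 to 0.36 in POLR2H, -1.51 to 0.17 in POLR2J and -0.10 to 0.41 in POLR2L. With A reads lowered by the unconverted share, the MED26 and MED1 sites came to 0.00072 and 0.032. With limma, the MED1 site came to 0.077 and the first bases of MED25 and POLR2H to 0.025 and 0.018. The MED1 site came to 0.021 with DESeq2 and 0.14 with the replicate block. The cause of these changes was not tested. Depth limits sites near 20 reads, where a level of 40.0% has an interval of 21.9% to 61.3%.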

Other observations

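Some member sites were listed in the libraries of only 1 group and enter no comparison above. Both controls and neither ascorbic acid library listed 41 member sites, 3.41% of 1203, beside 3.04% of the 218950 sites in the series. Both ascorbic acid libraries and neither control listed 22, 1.83%, beside 2.75% in the series. The median control level of the 41 was 14.1%, and 9 were above 20%. A MED7 site, in the middle module of Mediator at chromosome 5 position 157138876, was the highest, at 94.4% and 100.0% in control on 18 and 25 reads. An INTS11 site at chromosome 1 position 1311788 read 34.8% and 34.0% on 287 and 294 reads. A second INTS11 site, at position 1311684, read 22.2% and 29.8% on 324 and 332 reads. A site missing from a list has no level there, so none is given for ascorbic acid.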
